A study of Aphis gossypii with 6 samples.

Results

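LOC114129314 is a gene of the aphid Aphis gossypii whose product is described as a DNA-binding protein of the RFX2-like kind. It was taken by its identifier, as 1 of the 14013 genes of the deposited table, with its read count and FPKM (fragments scaled by gene length and library size) in each library. It was chosen by those values, its read counts and FPKM in the resistant and susceptible libraries, so its own strain difference is described here and not tested.

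RFX proteins are transcription factors that bind X-box motifs in promoters. In Caenorhabditis elegans the family member daf-19 is needed for the cilia of sensory neurons, and in Drosophila Rfx is needed for the ciliated dendrites of hearing, touch and smell. Their known targets in those animals include genes of intraflagellar transport, which carries cargo along the cilium, and of the BBSome, a coat complex that carries membrane proteins in and out of it. In insects, cilia are known from sensory neurons and from sperm.

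The study set aphids resistant to beta-cypermethrin, a pyrethroid insecticide (strain RGL), against a sensitive strain (SGL), and neither was exposed to the insecticide for the sequencing, per the design text. Total RNA of pooled whole bodies was sequenced in 3 libraries per strain, and the labels give no age, stage, sex or morph of the aphids. Each condition is 1 strain, so resistance cannot be told apart from any other difference between the strains. Nothing in the labels says whether replicate libraries came from separate cultures, so the p-values measure only the spread between these libraries, which may be technical.

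The libraries held 31290134 to 46681719 counts, with 11702 to 12072 genes detected. Resistant replicate 1 stood apart, with a TMM factor (edgeR's scaling for composition) of 0.858 against 0.988 to 1.06 in the other 5 libraries. Its counts differed from those of resistant replicates 2 and 3 by chi-square values of 97.8 and 123 per degree of freedom, against 19.3 between replicates 2 and 3 and 6.94 to 8.13 between susceptible libraries. Results are therefore also given without it where its removal matters. In whole bodies, fewer cells of a type and less RNA per cell cannot be told apart.

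LOC114129314 was lower in every resistant library than in every susceptible library. Its FPKM was 5.03, 7.22 and 7.61 in resistant replicates 1, 2 and 3, against 21.6, 21.3 and 22.2 FPKM in susceptible replicates 1, 2 and 3. The strains did not overlap, and the lowest value was that of resistant replicate 1. These levels rested on 660, 1380 and 1136 read counts in the resistant libraries and 3287, 2944 and 2894 read counts in the susceptible libraries. The smallest of them, 660, has an exact Poisson 95% interval of 611 to 712, which covers counting error only.

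The mean level was 6.62 ± 1.39 FPKM in resistant and 21.7 ± 0.457 FPKM in susceptible aphids (SD, n = 3 each). In CPM, the count scaled to library size with TMM, the gene had 24.6, 29.9 and 31.0 CPM in the resistant libraries, against 85.9, 85.2 and 86.6 CPM in the susceptible libraries. The mean was 28.5 ± 3.43 CPM in resistant and 85.9 ± 0.697 CPM in susceptible aphids (SD, n = 3 each). The fitted log2 fold change, resistant over susceptible, was -1.59 ± 0.11 (SE), which is 3.01-fold lower in resistant aphids. Without resistant replicate 1 it was -1.50. The authors' deposited table gives a log2 fold change of -1.57 for the same gene.

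**Figure D1:**
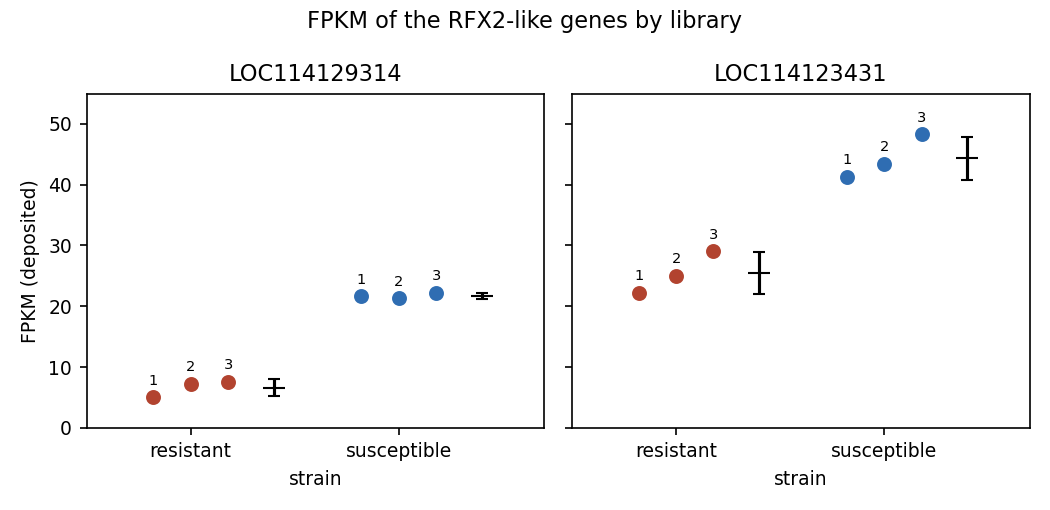
Deposited FPKM (vertical axis, linear from 0) of LOC114129314 (left) and of the other RFX2-like gene, LOC114123431 (right), with each numbered point 1 library, resistant libraries left of susceptible ones; black bars are the mean ± SD of 3 libraries. LOC114129314 lies between 5.03 and 7.61 FPKM in resistant libraries and between 21.3 and 22.2 FPKM in susceptible libraries.

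The coefficient of variation of its CPM was 12.0% among the resistant libraries and 0.811% among the susceptible libraries. The susceptible counts carry counting error too, and 2894, the smallest, has an exact Poisson 95% interval of 2790 to 3001. The 0.811% is below that error and rests on 3 libraries, and the difference in spread between strains was not tested. Resistant replicate 1 lay 0.31 below the mean of resistant replicates 2 and 3 on the log2 CPM scale, while the median tested gene lay -0.02 from that mean in the same library. In rank, 32.6% to 36.3% of the detected genes had a lower FPKM than LOC114129314 in the resistant libraries, against 63.8% to 64.2% of them in the susceptible libraries. The gene thus stood below the middle of detected genes in resistant aphids and above it in susceptible aphids.

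Few tested genes had so low a log2 fold change. Over all 11149 tested genes, 92 (0.825%) had a lower one. Among the 3598 tested genes with a mean CPM at or above that of LOC114129314, only 1 did. That gene, LOC114131342, has an uncharacterized product and was picked out after its values were seen; it had 23.2 ± 3.59 CPM in resistant and 205 ± 8.57 CPM in susceptible aphids, with a log2 fold change of -3.14. These places describe a gene chosen for its values and are not a test.

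LOC114129314 also had the lowest log2 fold change of all 227 tested genes that carry the Gene Ontology term for sequence-specific transcription factor activity in the deposited annotation. Of the other 226 genes, 34 fell and 31 rose at an edgeR quasi-likelihood adjusted p (Benjamini-Hochberg) under 0.05, and their median log2 fold change was 0.02. With 1 library left out, 14 to 66 of them fell and 15 to 47 rose. Over all tested genes, 14.4% fell and 21.4% rose by that rule, and the median was -0.004. By mean FPKM, LOC114129314 ranked 153 of the 227 in resistant aphids and 79 in susceptible aphids, counted from the highest. The factor with the lowest log2 fold change after it among those that passed was LOC114131367, a zinc finger protein picked out after its values were seen, at -1.01 ± 0.11 (edgeR adjusted p = 0.000350).

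The table holds 1 other gene of the family, LOC114123431. By 3 separate columns of the deposited annotation (product name, Pfam domain and KEGG orthology), the same 2 genes and no others in the table were RFX genes. Both have the RFX DNA-binding domain, both have daf-19 of Caenorhabditis elegans as their closest Swiss-Prot entry, and both carry the same 82 Gene Ontology terms, with none that only 1 of them carries. The annotation columns therefore do not separate the genes. The gene length implied by counts and FPKM was 4.10 to 4.21 kb for LOC114129314 over the 6 libraries and 3.42 to 3.86 kb for LOC114123431. The RefSeq gene table of assembly ASM2018417v2 lists 3 transcripts for LOC114129314 and 5 for LOC114123431. No other gene overlaps LOC114129314 in that table, while LOC114123431 overlaps LOC114123426, a WRAP73-like gene at 1.66 to 2.97 CPM in resistant and 2.09 to 2.32 CPM in susceptible libraries. The sources used here do not say how reads shared by similar genes were assigned, so a part of either RFX2-like gene's reads could belong to the other.

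LOC114123431 was the more abundant of the pair in every library, and it fell by less than LOC114129314 in fitted value. It had 22.2, 24.99 and 29.1 FPKM in resistant replicates 1, 2 and 3, against 41.3, 43.4 and 48.3 FPKM in susceptible replicates 1, 2 and 3, again without overlap. Its mean was 25.4 ± 3.44 FPKM in resistant and 44.3 ± 3.58 FPKM in susceptible aphids (SD, n = 3 each). The log2 fold change was -0.64 ± 0.08 (edgeR adjusted p = 0.000652, lower in 3 of 3 resistant libraries than in any susceptible one), and it passed in each fit that left out 1 library. In resistant replicate 1 its log2 CPM lay -0.02 from the mean of replicates 2 and 3, so that library was not low for LOC114123431 as it was for LOC114129314.

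A ratio of the genes within a library does not depend on how libraries are scaled. The counts of LOC114129314 divided by those of LOC114123431 gave 0.248, 0.316 and 0.292 in the resistant libraries, against 0.570, 0.538 and 0.553 in the susceptible libraries. The strains did not overlap in this ratio. Per length, LOC114129314 stood at 0.259 ± 0.031 of the FPKM of LOC114123431 in resistant aphids and at 0.491 ± 0.032 of it in susceptible aphids (SD, n = 3 each). Since LOC114129314 was chosen for its strain difference, the ratio was not tested.

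Genes of cilia, centrioles and ciliated dendrites were gathered by product name in 7 lists: intraflagellar transport, BBSome and membrane traffic, transition zone, centriole, axonemal dyneins, other axoneme proteins, and channels of ciliated dendrites. The lists rest on names alone and are not lists of known RFX targets. They held 167 genes, of which 16 had no count and 120 were tested. Of the 120, 34 fell (28.3%, against 14.4% of all tested genes) and 4 rose (3.33%, against 21.4%). Their median log2 fold change was -0.42, against -0.004 for all tested genes, and 96 of the 120 had a value below 0. In either direction, 35.8% of all tested genes passed. All 3 resistant libraries lay below all 3 susceptible libraries for 54 of the 120 genes, against 25.8% of all tested genes, and above them for 7, against 28.2%. LOC114129314, at -1.59, lay below every tested gene of the 7 lists. The summed CPM of the lists was 1114 to 1210 in resistant and 1448 to 1488 in susceptible libraries.

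How many genes passed depended on single libraries. The count of those that fell was 15, 15 and 19 without susceptible replicate 1, 2 and 3, and 49 without resistant replicate 1. The share of all tested genes that fell moved with it, to 7.22%, 6.96%, 6.97% and 24.9% in the same fits. In every fit that left out 1 library, 11 of the 34 still passed. Among all tested genes, 650 of the 1611 that fell did so.

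**Figure D2:**
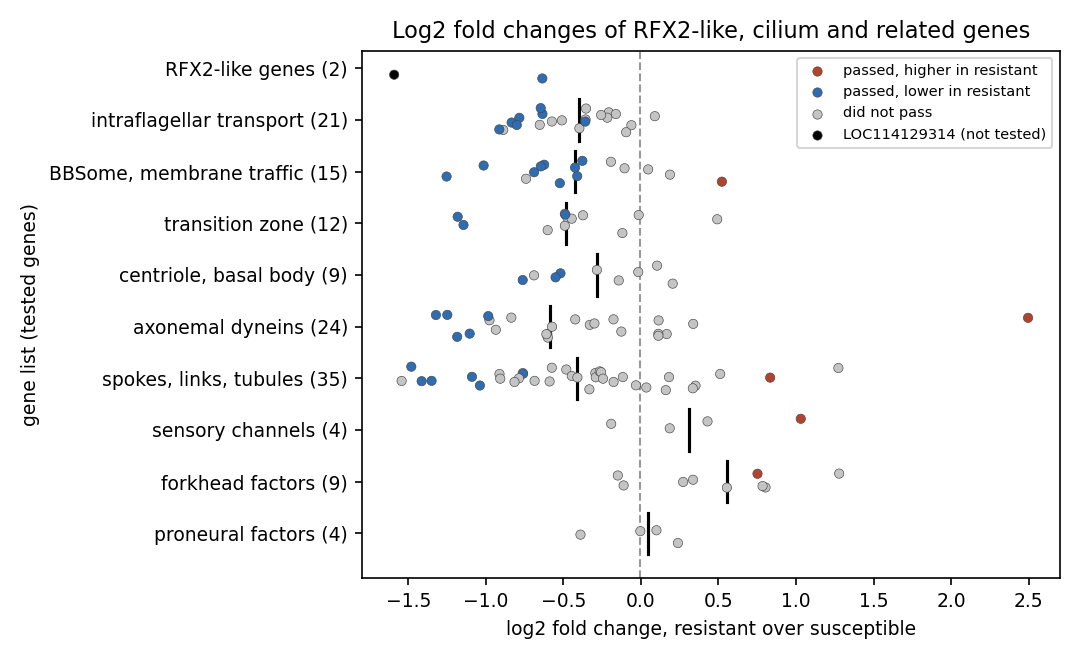
Log2 fold change, resistant over susceptible (horizontal axis), of each tested gene (point) by list, with the number of tested genes in brackets; red passed as higher, blue as lower and grey did not pass, the vertical bar is the list's median and the dashed line the median of all tested genes at -0.004. LOC114129314 (black, not tested) lies at -1.59, and the medians of the transport, BBSome, transition zone, centriole and axoneme lists lie between -0.59 and -0.28.

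The machinery that builds and loads the cilium is given first. In the transport, BBSome and transition zone lists together, 19 of 48 tested genes fell (39.6%, against 14.4% of all tested genes). In the same lists 1 rose (2.08%, against 21.4%), and the median log2 fold change was -0.46. Without susceptible replicates 1, 2 and 3 the number that fell was 7, 9 and 12, and without resistant replicate 1 it was 27. In the same fits 7.22%, 6.96%, 6.97% and 24.9% of all tested genes fell. Among intraflagellar transport genes, 7 of 21 tested fell (33.3%, against 14.4%), none rose (against 21.4%), and the median log2 fold change was -0.40. With 1 library left out, 2 to 12 fell. IFT57 (LOC114122620), a subunit of the train that moves cargo to the tip, had 12.8 ± 2.06 CPM in resistant and 22.9 ± 0.714 CPM in susceptible aphids, with a log2 fold change of -0.83 ± 0.15 (edgeR adjusted p = 0.00310). The heavy chain of dynein-2 (LOC114121622), the motor of the return path, had 6.02 ± 1.93 CPM in resistant and 11.4 ± 0.809 CPM in susceptible aphids, with a log2 fold change of -0.91 ± 0.23 (edgeR adjusted p = 0.0158). Its call was lost without susceptible replicate 1 or 2, at log2 fold changes of -0.89 and -0.88. The other 5 that fell were genes for IFT52, IFT88, IFT122, TRAF3-interacting protein 1 and a kinesin-II subunit. Of these 5, IFT122 alone passed in every fit that left out 1 library. The call was lost in 1 such fit for TRAF3-interacting protein 1 and in 2 for IFT52. For IFT88 and the kinesin-II subunit it was lost in 3 each.

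Of 15 tested genes of the BBSome and ciliary membrane traffic, 9 fell (60%, against 14.4% of all tested genes). In that list 1 rose (6.67%, against 21.4%), and the median log2 fold change was -0.42. With 1 library left out, 4 to 10 fell. A BBS7 gene (LOC114132703), coding for a BBSome subunit, had 9.72, 14.0 and 14.4 CPM in resistant libraries, against 25.1 to 26.1 CPM in the 3 susceptible libraries. Its log2 fold change was -1.01 ± 0.16 (edgeR adjusted p = 0.00208), and it passed in every fit that left out 1 library. A second BBS7 gene (LOC114132426) had 2.01, 2.25 and 1.47 CPM in resistant and 6.64, 2.23 and 4.82 CPM in susceptible libraries. Its strains overlapped, its log2 fold change was -1.25 ± 0.39 (edgeR adjusted p = 0.0364), and the call was lost in 4 of the 6 fits that left out 1 library, at -1.41, -1.09, -0.88 and -1.22 without resistant replicates 2 and 3 and susceptible replicates 1 and 3. It was also lost with limma-voom (-1.14). The gene that rose was that of ARL3 (LOC114128944), a small GTPase that releases lipid-bound cargo in the cilium, at 0.52 ± 0.12 (edgeR adjusted p = 0.00958). That call was lost without susceptible replicate 2 or 3, at 0.46 and 0.51, and with library totals in place of TMM, at 0.37.

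The transition zone is the gate at the base of the cilium. Of its 12 tested genes, 3 fell (25%, against 14.4% of all tested genes) and none rose (against 21.4%), with a median of -0.48. With 1 library left out, 1 to 5 fell. CEP290 (LOC114126818), a structural protein of that gate, had 3.59 ± 1.07 CPM in resistant and 7.99 ± 1.41 CPM in susceptible aphids, at a log2 fold change of -1.14 ± 0.26 (edgeR adjusted p = 0.0105), a call lost without susceptible replicate 1 (-1.04). A jouberin-like gene (LOC114127318) had 0.756 ± 0.0097 CPM in resistant and 1.72 ± 0.476 CPM in susceptible aphids. Its log2 fold change was -1.18 ± 0.32 (edgeR adjusted p = 0.0209), and its call was lost without resistant replicate 2 (-1.19) or susceptible replicate 1 (-1.05) or 2 (-1.07). Among 9 tested centriole genes, 3 fell (33.3%, against 14.4% of all tested genes) and none rose (against 21.4%). The number that fell was 1 to 3 with 1 library left out. Among the 3 were the genes of CP110 (LOC114125997, -0.76 ± 0.16, edgeR adjusted p = 0.00791) and CEP97 (LOC114129159, -0.55 ± 0.12, edgeR adjusted p = 0.0100). These are partner proteins that cap the centriole and hold back cilium growth. The call of CEP97 was lost without susceptible replicate 2, at -0.53.

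**Figure D3:**
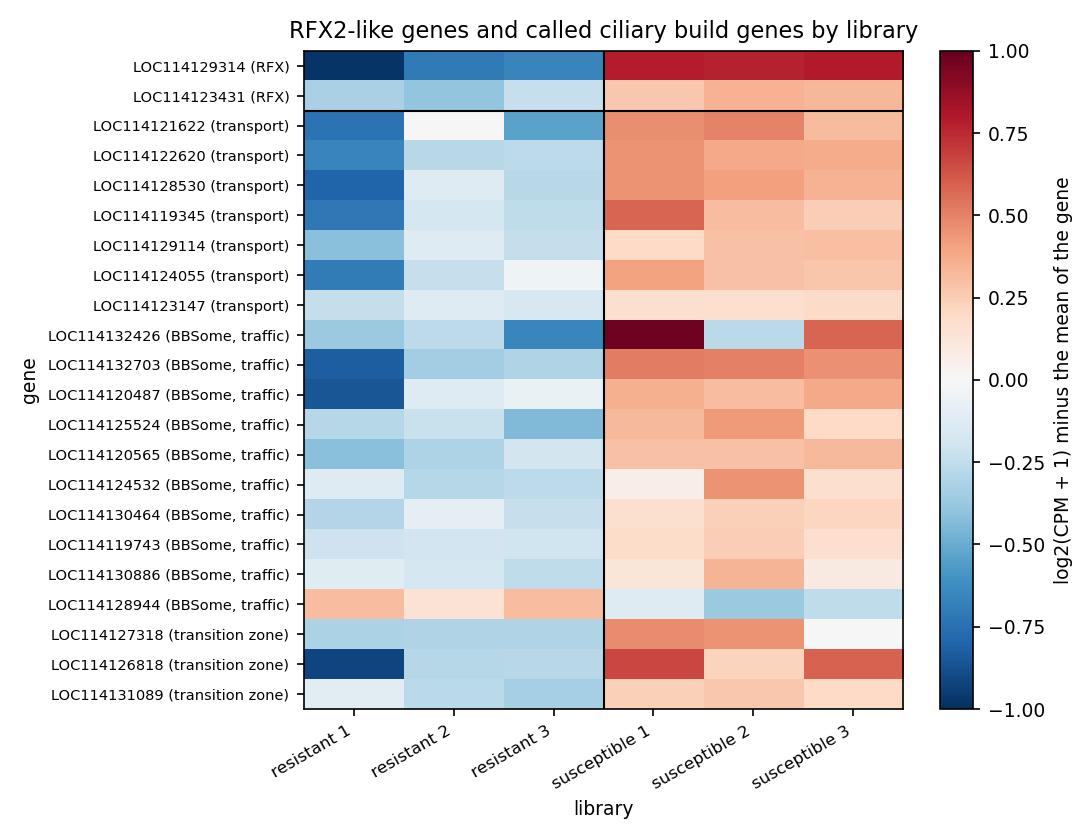
Log2(CPM + 1) minus the gene's mean over the 6 libraries (colour, from -1 to 1) for the RFX2-like genes (top) and the 20 genes of the transport, BBSome and transition zone lists that passed in either direction, with the resistant libraries in the left 3 columns and the susceptible libraries in the right 3. LOC114129314 is low in all 3 resistant libraries and lowest in replicate 1, and LOC114128944 is the 1 gene shown that is higher in resistant libraries.

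The 59 tested genes of the axonemal dynein and other axoneme lists had a median level of 0.537 FPKM in resistant and 0.649 FPKM in susceptible aphids, and 15 of the 102 listed had no count. Of the 59, 12 fell (20.3%, against 14.4% of all tested genes) and 2 rose (3.39%, against 21.4%), with a median log2 fold change of -0.45. With 1 library left out 5 to 19 fell, while the share of all tested genes that fell ranged from 6.96% to 24.9%. Dynein heavy chain 5-like genes LOC114121880 and LOC114125396, for a motor of the outer arm, had log2 fold changes of -1.32 ± 0.32 (edgeR adjusted p = 0.0134) and -1.25 ± 0.31 (edgeR adjusted p = 0.0156). Both lay under 1.5 CPM in every library, and both calls were lost without susceptible replicate 2 (-1.33 and -1.25) or 3 (-1.21 and -1.28), the second also without resistant replicate 2 (-1.19) or susceptible replicate 1 (-1.22). A dynein heavy chain 7-like gene, LOC114121359, went the other way, at 4.17, 7.04 and 7.31 CPM in resistant libraries against 0.915, 1.36 and 1.02 CPM in susceptible libraries (log2 fold change 2.50 ± 0.29, edgeR adjusted p = 0.000452). Several genes share that product name, and reads of near-identical copies could be split among them. Of that name, LOC114129101 fell and passed in every fit that left out 1 library (-1.29 to -1.04). LOC114120956 fell too (-1.22 to -0.74 in those fits), a call lost without any 1 of the susceptible replicates. The dynein heavy chain 3-like LOC114130757 fell and passed in every such fit (-1.22 to -0.95). The last genes were named here after their values were seen.

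Among the other axoneme proteins, those of the dynein regulatory complex protein 1 (LOC114120059) and of CFAP43 (LOC114129597) had log2 fold changes of -1.48 ± 0.38 (edgeR adjusted p = 0.0169) and -1.41 ± 0.37 (edgeR adjusted p = 0.0196). The first call was lost without susceptible replicate 1 (-1.44) or 2 (-1.33), and the second without susceptible replicate 1 (-1.47), 2 (-1.41) or 3 (-1.38). The gene of outer dense fiber protein 3 (LOC114126506) rose, with 117 ± 13.8 CPM in resistant and 65.4 ± 1.95 CPM in susceptible aphids (log2 fold change 0.83 ± 0.10, edgeR adjusted p = 0.000578).

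Of 4 tested channels of ciliated sensory dendrites, 1 rose (25%, against 21.4% of all tested genes) and none fell (against 14.4%). The odorant receptor coreceptor (LOC114125477), which pairs with odorant receptors in olfactory cilia, had 2.27, 1.78 and 2.18 CPM in resistant libraries, against 1.18, 1.01 and 0.838 CPM in susceptible libraries, without overlap. Its log2 fold change was 1.03 ± 0.27 (edgeR adjusted p = 0.0193), lost without susceptible replicate 2 (1.03) or 3 (0.91).

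Factors known to act beside RFX proteins in other animals gave counts that turned on single libraries. FOXJ1 is a forkhead factor that works with RFX factors on motile cilia in vertebrates. The FOXJ1.2-like gene (LOC114127293), named after its values were seen, was near the limit of detection at 0.464 to 1.60 CPM in resistant and 0.120 to 0.784 CPM in susceptible libraries, overlapping between strains, and did not pass (log2 fold change 1.28 ± 0.74, edgeR adjusted p = 0.209). Of the 9 tested forkhead genes, 1 rose (11.1%, against 21.4% of all tested genes). It was the FD4-like LOC114125297, at 10.5 ± 2.50 CPM in resistant and 6.20 ± 0.793 CPM in susceptible aphids (0.75 ± 0.21, edgeR adjusted p = 0.0237). That call was lost without resistant replicate 2 (0.78) or any susceptible replicate (0.65 to 0.82). In those fits no forkhead gene rose, while 5 rose without resistant replicate 3, 4 with DESeq2's Wald test, and 3 without resistant replicate 1 or without a low-count filter. No forkhead gene fell, except 1 without resistant replicate 1 and 1 with library totals. None of the 4 tested genes of proneural factors, which set up sensory organs in flies, passed in either direction (against 35.8% of all tested genes). Their median log2 fold change was 0.05. Without resistant replicate 1 the median turned to -0.32 and 2 of the 4 fell, and 1 fell with library totals or with limma-voom. Resistant replicate 1 was high for both groups, by a median of 0.68 for forkhead and 0.84 for proneural genes on the log2 scale against replicates 2 and 3, and low by 0.16 for the cilium lists.

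Lists of neuronal, sperm and testis, and muscle and ovary genes were set beside these values. The neuronal list is not limited to ciliated sensory neurons, and the sperm and testis list is a match on product names. Neither measures the amount of ciliated cells. Of 12 neuronal genes, a list added after the data were seen, 4 rose (33.3%, against 21.4% of all tested genes) and 3 fell (25%, against 14.4%), with a median log2 fold change of -0.19 and summed CPM of 652 to 730 in resistant and 686 to 699 in susceptible libraries. Those that fell were choline acetyltransferase, an ELAV-like gene and synapsin, and those that rose were a CUGBP Elav-like gene, a YKT6 homologue, a syntaxin-1A-like gene and a synaptobrevin-1-like gene, of which the YKT6 homologue is not a neuronal marker in other animals. Of 15 sperm and testis genes, 10 were tested, 1 fell (10%, against 14.4%) and none rose, with a summed CPM of 182 to 240 in resistant and 234 to 247 in susceptible libraries, and 2 had no count. Of 6 check genes of muscle and ovary, 2 rose (troponin T and muscle myosin heavy chain; 33.3%, against 21.4%) and 1 fell (a troponin C; 16.7%, against 14.4%). In every fit that left out 1 library, 1 of the 4 neuronal genes that rose (the syntaxin-1A-like one) and 1 of the 3 that fell (choline acetyltransferase) still passed, and none of those of the sperm and muscle lists did. The part of these cells in the lower level of LOC114129314 was not tested.

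Profiles over the 6 libraries were compared by the root mean square difference of log2 CPM, each gene centred on its own mean, over the other 10400 genes with a mean of at least 1 CPM. The nearest gene to LOC114129314 lay at 0.1004 and the median gene at 0.817, and 11 genes lay within 0.2. The 10 nearest were a copia-like sequence, a modular serine protease-like gene (LOC114127199), a TNF receptor-associated factor 6-like gene (LOC114120558), an mpv17-like gene (LOC114122338), 4 genes with uncharacterized products and 2 loci without a product name. The profile held only 6 points and was ruled by the strain difference, so all 10 were lower in resistant libraries by construction. With log2(FPKM + 1) in place of CPM, 5 of the 10 stayed among the nearest.

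None of the 10 nearest genes belongs to a cilium list, but only 90 of the 10400 ranked genes do. The nearest cilium gene was that of a dynein heavy chain 3-like motor (LOC114130757), at rank 28 and a distance of 0.253. It was followed by an enkurin-like gene (LOC114128611) at rank 51, a tektin-B1-like gene (LOC114126628) at rank 54 and the BBS7 gene LOC114132703 at rank 57. The other RFX2-like gene, LOC114123431, stood at rank 575, at a distance of 0.492.

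**Figure D4:**
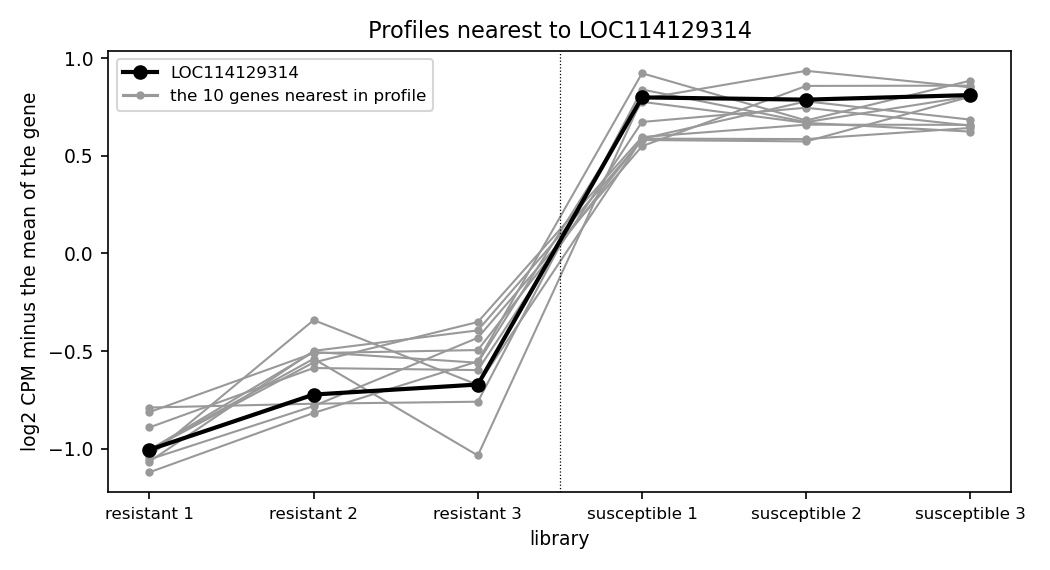
Log2 CPM minus the gene's mean (vertical axis) in each library (horizontal axis, resistant libraries left of the dotted line) for LOC114129314 (black) and the 10 genes nearest to it in profile (grey). LOC114129314 dips in resistant replicate 1, and all 10 grey lines are lower in the resistant than in the susceptible libraries because the measure selects such genes.

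In the gene order of the RefSeq table, the nearest neighbours of LOC114129314 rose on one side and fell on the other. Any gene of that order absent from the deposited counts was passed over. On the side before it, the nearest gene, LOC114129317, an epoxide hydrolase 4-like gene, had 15.8 ± 1.27 CPM in resistant and 11.3 ± 0.478 CPM in susceptible aphids and rose (log2 fold change 0.49 ± 0.13, edgeR adjusted p = 0.0197). The next, LOC114129315, of the same product name, rose by 0.47 ± 0.15 (edgeR adjusted p = 0.0456), and the third, LOC114129320, had 0.30 ± 0.17 and did not pass (edgeR adjusted p = 0.204). The call of LOC114129317 was lost without any 1 of the susceptible replicates (0.45 to 0.50), and that of LOC114129315 in 5 of the 6 fits that left out 1 library (0.38 to 0.56). With library totals in place of TMM neither passed, at 0.34 and 0.31.

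On the other side, the nearest gene, LOC114129321, of uncharacterized product, had 24.1, 26.2 and 25.3 CPM in resistant libraries, against 36.4, 36.9 and 34.1 CPM in susceptible libraries, without overlap. It fell by 0.51 ± 0.10 on the log2 scale (edgeR adjusted p = 0.00507), about the size of the change in LOC114123431 and well short of that in LOC114129314. The next, LOC114129323, had a log2 fold change of -0.53 ± 0.21 and did not pass (edgeR adjusted p = 0.0876), though it did with library totals (-0.68). The third, LOC114129318, a tubulin glycylase 3A-like gene, had at most 0.075 CPM in any library and was not tested. No strand setting is stated, so reads of a gene and of an overlapping or antisense one cannot be told apart.

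**Figure D5:**
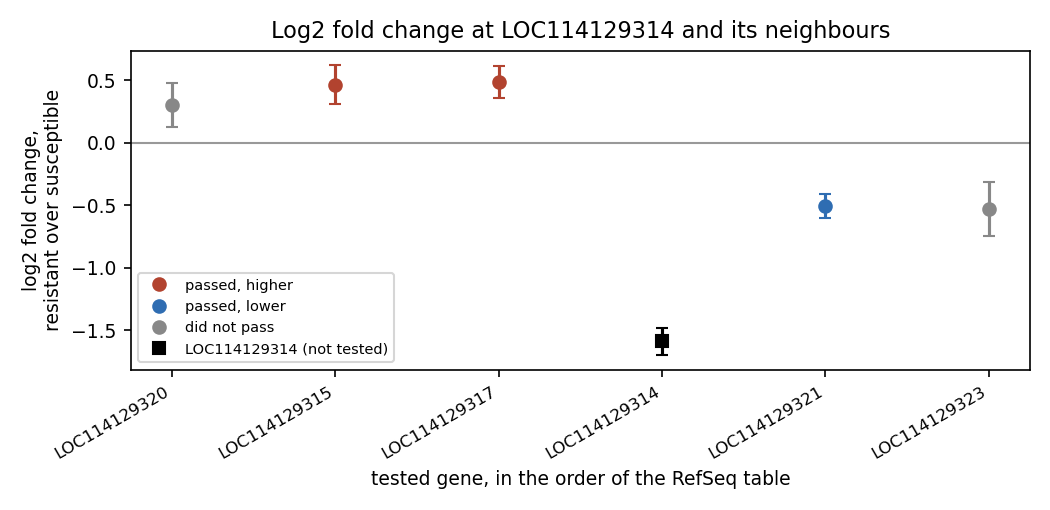
Log2 fold change, resistant over susceptible, with its SE (vertical axis) of LOC114129314 (black square, not tested) and of its tested neighbours in the order of the RefSeq gene table, without distances; red passed as higher, blue as lower and grey did not pass. LOC114129314 lies at -1.59, between epoxide hydrolase-like genes at 0.47 and 0.49 on the one side and genes at -0.51 and -0.53 on the other. Any gene absent from the deposited counts was passed over.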

How the data were processed

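RNA of pooled whole bodies was sequenced in 6 libraries, 3 per strain, grouped by their titles. HISAT2 and fastp 0.22.0 are the tools listed in the submitters' processing notes. No counter, strand setting, annotation or build is named in the sources used here. Per the file headers, the authors deposited whole-number read counts, FPKM values, and, from their own DESeq2 comparison, a log2 fold change with its adjusted p-value.

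Counts were tested in R 4.3.3 with edgeR 4.0.16: TMM scaling, genes kept by filterByExpr (minimum count 10, minimum total 15), a robust quasi-likelihood F test on strain, and Benjamini-Hochberg adjusted p under 0.05 over 11149 genes. The SE was taken as the absolute log2 fold change over the square root of F. DESeq2 1.42.0 and limma 3.58.1 gave alternatives. FPKM served for levels between genes. The script was tested on simulated counts. Simulated log2 changes of 2, 1 and 0.5 were recovered in 65 of 66, 47 of 66 and 12 of 67 genes. Small changes were thus mostly missed. Of 10878 genes simulated without change, 13 passed. LOC114129314, the gene lists and the alternatives were chosen with earlier results of these data known. Lists are text patterns on product names, and neuronal and tubulin enzyme lists were added after seeing the data. Named genes are up to 2 per cilium list and direction with the greatest change among those that passed, the other RFX gene, forkhead and proneural genes that passed, the 10 nearest profiles and 3 neighbours per side. Of 12815 LOC identifiers, 10738 matched the RefSeq table of ASM2018417v2, used for names and gene order only. Intervals cover counting error only.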

Additional observations from a re-analysis of the deposited data

How the results depend on the processing

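The log2 fold change of LOC114129314 stayed between -1.73 (library totals in place of TMM) and -1.50 (without resistant replicate 1) in all 13 alternatives. Library totals shift the median of all tested genes to -0.15, and the gene is to be read against that. Cilium genes that fell numbered 34 (28.3% of those tested, against 14.4% of all tested genes). With DESeq2's size factors, library totals, DESeq2's Wald test or limma-voom they numbered 37 to 45 (30.8% to 37.5%, against 15.2% to 20.8%). With other low-count filters they numbered 34 and 36 (22.5% and 38.3%, against 12.0% and 15.4%). When 1 library was left out they numbered 15 to 49 (12.1% to 39.8%, against 6.96% to 24.9%). Those that rose numbered 4, and 2 to 5 with 1 library left out. In alternatives chosen after seeing the data, 22 fell and 2 rose without the axoneme lists. Also chosen then were the deposited term for cilium assembly and a mean of at least 1 CPM. Of 71 tested genes with that term, 17 fell (23.9%, against 14.4% of all tested genes) and 3 rose (4.23%, against 21.4%). Of 90 tested cilium genes with a mean of at least 1 CPM, 32 fell. The share among all genes at that level is not given. Over all tested genes, 1611 fell and 2383 rose, against 2322 and 1759 with library totals, 788 to 2826 and 1593 to 3249 with 1 library left out. For the changed counts the cause was not tested, except that lists with fewer genes hold fewer calls.

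The replicate numbers do not pair the samples, as same-numbered libraries deviated together with correlations of -0.011, -0.030 and -0.015. With the replicate number as a block, LOC114129314 had -1.60. In that fit 26 cilium genes fell (21.7% of those tested, against 11.8% of all tested genes) and 4 rose. The call of the BBS7 gene LOC114132426 was among those lost (-1.14). None of the genes named by rule changed sign under the alternatives run, and of the others named, LOC114123426, at 0.08, ranged from -0.15 to 0.28. The axoneme genes lie low, with medians under 1 FPKM, and what depth does to their calls was not tested.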

Other observations

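Enzymes that add or remove amino acid chains on tubulin, a modification found on ciliary and neuronal microtubules, were also looked at. Of 21 such genes, a list added after the data were seen, 15 were tested, 3 fell (20%, against 14.4% of all tested genes) and none rose (against 21.4%), with a median log2 fold change of -0.34. Without resistant replicate 2 or any 1 of the susceptible replicates, 1 fell, and without resistant replicate 3, 2 fell. Without resistant replicate 1, 4 fell and 1 rose. In the fits that left out 1 library the median was -0.29 to -0.17, and 6.96% to 24.9% of all tested genes fell. The most abundant of those that fell, a TTLL4-like polyglutamylase gene (LOC114128347), had 54.0, 72.0 and 81.2 CPM in resistant libraries, against 118.9, 111 and 116 CPM in susceptible libraries. Its log2 fold change was -0.74 ± 0.14 (edgeR adjusted p = 0.00489), it passed in every fit that left out 1 library, and resistant replicate 1 was again the lowest library.

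Gene Ontology terms that the RFX2-like genes carry themselves were counted too. Leaving out LOC114129314 itself, of 38 tested genes with the term for sensory perception of sound, 10 fell (26.3%, against 14.4% of all tested genes) and 7 rose (18.4%, against 21.4%), with a median log2 fold change of -0.25. With 1 library left out, 4 to 17 fell and 4 to 8 rose. Of 87 others with the term for dendrite morphogenesis, 13 fell (14.9%, against 14.4%) and 13 rose (14.9%, against 21.4%), with a median of -0.06, and with 1 library left out 6 to 26 fell and 7 to 20 rose.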
